A study of Mus musculus with 18 samples.

Results

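The cells described here were OT2 thymocytes with high CD4 and low CD8A antibody values, compared between a host that holds the antigen of their receptor and a wild-type host. Cells were chosen by their measured antibody counts and hashtag: the CD4 value had to be over 6.3 and the CD8A value at most 6.1, both as log2 of 1 plus the antibody count scaled to the median antibody total of all cells. This left 39 of 177 cells of the OT2 NegSelected mouse and 189 of 254 cells of the OT2 PosSelected mouse, or 228 of the 1331 cells of the series. OT2 NegSelected cells came from a host on the C57BL/6 background with the transgene Tg(Ins2-TFRC/OVA)296Wehi (RIPmOVA), in which the rat insulin promoter drives membrane-bound ovalbumin, and OT2 PosSelected cells came from a C57BL6/Ncr wild-type host. In both, OT2 CD45.1.2 marrow (30%) and CD45.1 competitor marrow (70%) had been given together. The thymus was taken 6 weeks after transplant at 14 weeks of age from 1 female mouse per host, not pooled, and cells were sorted as CD44lo CD45.1.2+ Va2+ Vb5+. The host's own tissue carries the antigen or lacks it, so the donor cells of both mice share 1 genotype. With 1 mouse a side nothing below has a replicate check: intervals are 95% counting intervals, which cover neither the spread between mice nor that between cells, and no p-value is given.

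OT2 is a transgenic receptor of the CD4 lineage that recognises an ovalbumin peptide on MHC class II. Thymocytes whose receptor binds self-peptide weakly mature as CD4 single-positive cells, lose CD24 and gain Klf2 and S1pr1 before they leave the thymus. Strong binding leads to death (negative selection) or to agonist-selected fates such as regulatory T cells, and is marked by Nr4a1, Helios (encoded by Ikzf2), PD-1, GITR, 4-1BB and OX40. The comparison asks what CD4 single-positive cells look like when the antigen is present in the host.

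The cells were told apart by oligonucleotide tags of 15 bases each, shown because every value below rests on them; all bases are in capitals since the whole run is the tag.
OT2 NegSelected hashtag: CTACATTGCGATTTG
OT2 PosSelected hashtag: GCTTACCGAATTAAC
CD4 antibody: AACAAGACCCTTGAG
CD8A antibody: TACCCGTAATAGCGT
Vb5 antibody: CTCAACAGTATTCTG
CD44 antibody: TGGCTTCAGGTCCTA
GITR antibody: GGCACTCTGTAACAT
CD25 antibody: ACCATGAGACACAGT

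The share of cells inside the gate, 22.0% (exact Clopper-Pearson interval 16.2 to 28.9%) in OT2 NegSelected and 74.4% (68.6 to 79.7%) in OT2 PosSelected, is set by the rule and is given as a description. The lowest CD4 value inside was 6.49 in NegSelected and 6.41 in PosSelected cells, and the highest just outside was 5.88 in NegSelected and 6.13 in PosSelected cells. The highest CD8A value inside was 5.95 in NegSelected and 5.83 in PosSelected cells, and the lowest outside was 6.38 in NegSelected and 6.12 in PosSelected cells. The median CD8A value inside was 4.46 in NegSelected and 3.69 in PosSelected cells. CD8- below thus means at or under the threshold, not absent. The NegSelected cells held 142312 RNA molecules (UMIs; median 3779 per cell) and the PosSelected cells 566769 (median 2937), with 210566 and 764920 antibody UMIs. The cells of all 6 mice of the series are in 1 count matrix, and no cell barcode occurred in more than 1 mouse.

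Marker RNA is given as a description, since the gate itself chose cells by CD4 and CD8A antibody. The 9 genes of the CD4 lineage list summed to 3267 CPM in NegSelected and 3342 CPM in PosSelected cells. In the CD4+CD8+ cells of the same mice they summed to 6563 and 5926 CPM, so this list does not set the gated cells apart. Cd4, Zbtb7b (the ThPOK factor of the CD4 lineage), Gata3 and Cd40lg were detected in both mice, at 267, 56.2, 77.3 and 84.3 CPM (UMIs of a gene per 1000000 UMIs of the summed cells) in NegSelected and 348, 70.6, 60.0 and 141 CPM in PosSelected cells. Cd8a was at 0 UMIs in 39 NegSelected cells, which allows a share of cells with a UMI of up to 7.69%, and was found in 2 of 189 PosSelected cells. In the CD4+CD8+ cells of the same mice it was found in 51 of 66 NegSelected and 21 of 29 PosSelected cells (median depth 2162 and 2520 UMIs). Cd8b1 was found in 1 of 39 NegSelected and 26 of 189 PosSelected cells, against 47 of 66 and 23 of 29 CD4+CD8+ cells, and free RNA as its source was not tested. Rag1 was at 0 in both mice. The preselection list of 13 genes that holds Rag1 summed to 675 CPM in NegSelected and 857 CPM in PosSelected cells, with 5 and 3 genes at 0. Of the marker lists of other cells, all 7 NK and ILC markers were at 0 in NegSelected and 6 of 7 in PosSelected cells, all 6 erythroid markers were at 0 in both, and the 4 gamma delta T markers summed to 7.03 CPM in NegSelected and 28.2 CPM in PosSelected cells. The 12 myeloid and dendritic markers summed to 126 CPM in NegSelected and 74.1 CPM in PosSelected cells. The 8 CD8 lineage markers summed to 155 and 233 CPM, the 7 B cell markers to 112 and 120 CPM. For the 5 iNKT markers the sums were 70.3 and 98.8 CPM. The part of these marker lists in the results was not tested.

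Some cells went against the sort. Of the 39 NegSelected cells, 14 had a Vb5 antibody value of at most 3, 12 had a CD44 antibody value over 5, and 15 had at least 1 of these (38.5%, 23.4 to 55.4%). Of the 189 PosSelected cells these numbers were 9, 18 and 19 (10.1%, 6.16 to 15.3%). Only 1 of the 15 NegSelected cells had a UMI of Trbv12-1 or Trbv12-2, the gene segments of the Vb5 chain, while all 15 had a UMI of another Trbv segment. Of the 24 other NegSelected cells, 18 had a Trbv12 UMI and 14 one of another segment, and of the 170 other PosSelected cells 135 and 79 did; of the 19 PosSelected cells, 8 had a Trbv12 UMI and 15 another. The median CD24 antibody value of the 15 NegSelected cells of low Vb5 or high CD44 was 2.51, against 6.02 in the other 24 NegSelected cells. What these cells are was not tested, and since they make up a larger share of NegSelected cells, the main results are also given for the cells that fitted the sort (Vb5 over 3 and CD44 at most 5; 24 NegSelected and 170 PosSelected cells), called sort-matched below. This restriction was chosen after seeing the data.

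**Figure D1:**
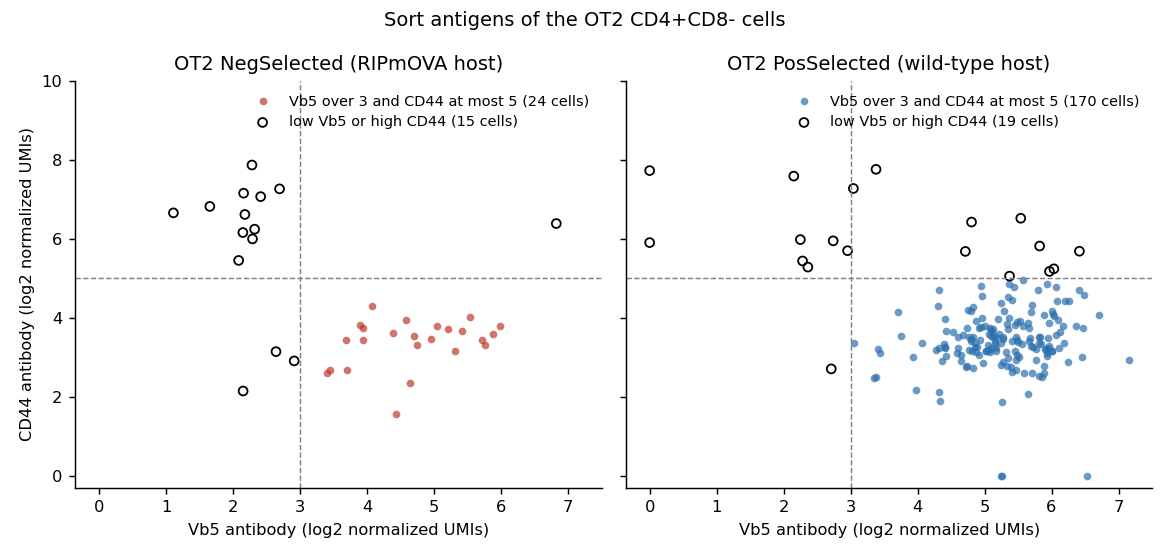
Vb5 antibody (x axis) against CD44 antibody (y axis), both log2 normalized UMIs, for each CD4+CD8- cell of the OT2 NegSelected mouse (left) and the OT2 PosSelected mouse (right). Filled points are sort-matched cells (24 and 170), open circles are the 15 and 19 cells of low Vb5 or high CD44, and dashed lines mark values of 3 and 5.

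Ikzf2 RNA, which encodes the transcription factor Helios, stood highest above PosSelected cells by ratio among the named genes. It had 1159 CPM in NegSelected cells and 19.4 CPM in PosSelected cells, a 59.7-fold difference (32.5 to 122). UMIs of it were found in 19 of 39 NegSelected cells, with a median of 5 and a highest value of 31 per cell that had any, and in 7 of 189 PosSelected cells, with at most 3. Thinned to 1000 UMIs a cell, the share of cells with a UMI was 33.3% in NegSelected and 0.538% in PosSelected cells (3 shallower PosSelected cells left out). Among sort-matched cells Ikzf2 had 1725 CPM in NegSelected and 22.0 CPM in PosSelected cells (78.3-fold, 42.5 to 160). Outside the sort pattern Ikzf2 had 370 CPM in the 15 NegSelected cells and 0 UMIs in the 19 PosSelected cells, at least 8.31-fold higher against a floor of 3 counts over the group.

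Across the genome, 3440 genes had a mean of both CPM of at least 50. Of these, 150 (4.36%) were at least 2-fold higher and 116 (3.37%) at least 2-fold lower in NegSelected than in PosSelected cells, and the median log2 ratio was 0.03. Among sort-matched cells 442 of 3624 genes (12.2%) were higher and 204 (5.63%) lower, with a median log2 ratio of 0.16. Both sets held 122 of the higher genes, which is 81.3% of the 150 and 27.6% of the 442, and 78 of the lower genes, 67.2% of the 116 and 38.2% of the 204. The sort-matched sums were smaller, at 82898 UMIs in NegSelected and 499457 in PosSelected cells, and ribosomal genes took 15.4% of UMIs in NegSelected and 20.6% in PosSelected sort-matched cells; their part in the counts was not tested. The shares of 4.36% and 3.37% over all cells and of 12.2% and 5.63% in sort-matched cells are the background of each gene list below. The lists were chosen with earlier results of these data known.

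Several receptors of the TNF receptor superfamily, which relay costimulation or death signals, were at least 2-fold higher in NegSelected cells. Tnfrsf9 (4-1BB) had 443 CPM in NegSelected and 15.9 CPM in PosSelected cells, 27.9-fold (13.8 to 63.8). Tnfrsf4 (OX40) had 162 CPM in NegSelected and 10.6 CPM in PosSelected cells, 15.3-fold (6.04 to 45.8). Tnfrsf18 (GITR) had 281 CPM in NegSelected and 52.9 CPM in PosSelected cells, 5.31-fold (3.23 to 8.83). Tnfrsf25 (DR3) had 84.3 CPM in NegSelected and 21.2 CPM in PosSelected cells. Fas, a death receptor, had 169 CPM in NegSelected and 40.6 CPM in PosSelected cells, 4.16-fold (2.25 to 7.70). In the list of TNF receptor family and related costimulatory genes, 4 of the 9 members that passed the filter were at least 2-fold higher and 0 lower, against 4.36% and 3.37% of all genes, with a median log2 ratio of 0.67. Cd28 (253 CPM in NegSelected, 337 in PosSelected) and Icos (49.2 and 60.0 CPM), which are costimulatory receptors of another family, were not past 2-fold in RNA. In sort-matched cells 6 of 10 were higher, against 12.2% of all genes, and the median was 1.78, with Tnfrsf1b (TNFR2) at 109 CPM in NegSelected and 10.0 CPM in PosSelected cells and Cd27 at 531 and 242 CPM.

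The same NegSelected cells carried several of these transcripts. All 12 cells with a UMI of Tnfrsf9 also had one of Ikzf2, and none of the 20 cells without Ikzf2 had Tnfrsf9. Tnfrsf18 was found in 10 of the 19 cells with Ikzf2 and in 6 of the 20 without, at median depths of 3816 and 3657.5 UMIs. The GITR antibody had a median of 5.48 (2.96 to 7.13) in the 19 cells with an Ikzf2 UMI and 3.14 (1.61 to 6.20) in the 20 without. CD24 antibody had medians of 6.04 in cells with an Ikzf2 UMI and 2.65 in cells without, and Vb5 antibody 4.71 and 2.66. Klf2, a gene of mature cells, was found in 7 of the 19 and in 14 of the 20. Ikzf2 was found in 15 of the 24 sort-matched NegSelected cells and in 4 of the 15 others. Those 15 others had median antibody values of 2.51 for CD24 and 2.28 for Vb5, against 6.02 and 4.68 in sort-matched cells. The antibody and Klf2 contrasts thus also set sort-matched against other cells, and they were not made within sort-matched cells. Il2ra (CD25) was found in 0 of the 12 cells with Tnfrsf9 and in 5 of the 27 without. These are cells of 1 mouse and are given as a description.

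**Figure D2:**
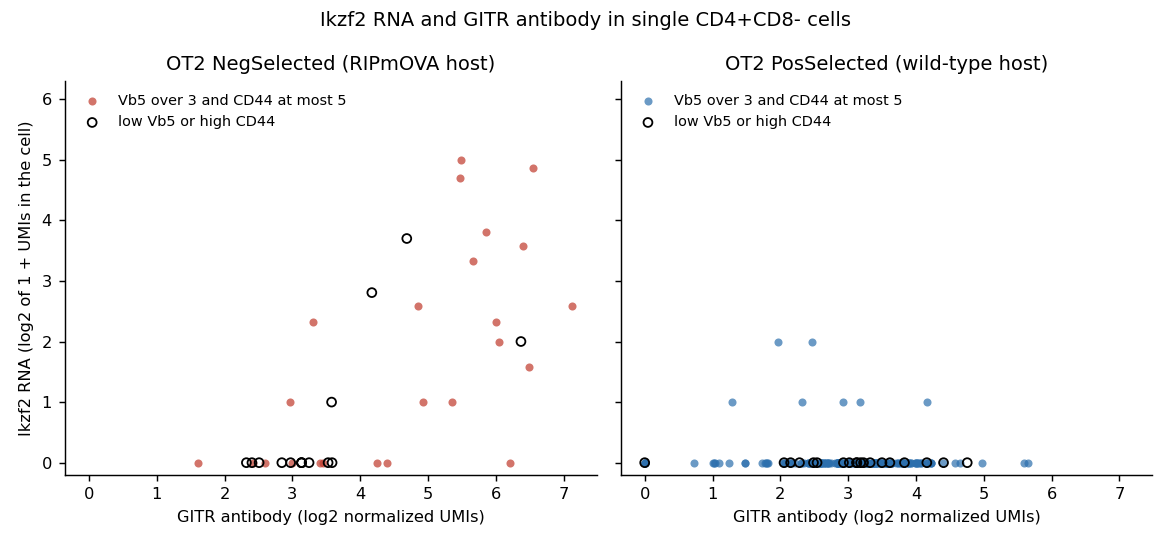
GITR antibody (x axis, log2 normalized UMIs) against Ikzf2 RNA (y axis, log2 of 1 plus the UMIs of the cell) for each CD4+CD8- cell, OT2 NegSelected left and OT2 PosSelected right. Open circles are cells of low Vb5 or high CD44. In NegSelected cells Ikzf2 reached 31 UMIs in a cell, and in PosSelected cells 3.

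Early genes induced by the T cell receptor differed in direction. Nr4a1 (Nur77), a nuclear receptor made within hours of receptor signalling, had 316 CPM in NegSelected and 24.7 CPM in PosSelected cells, 12.8-fold (6.90 to 25.3), with 33.3% of its NegSelected UMIs in 1 cell. Nr4a3 had 134 CPM in NegSelected and 8.82 CPM in PosSelected cells, but in 3 and 1 cells only. Cd5, a surface brake on receptor signalling, had 450 CPM in NegSelected and 208 CPM in PosSelected cells (2.16-fold, 1.57 to 2.95), and Tagap had 105 and 17.6 CPM. Egr1, by contrast, had 148 CPM in NegSelected and 213 CPM in PosSelected cells (ratio 0.69, 0.41 to 1.10), Egr2 had 1 UMI in NegSelected and 24 in PosSelected cells (ratio 0.17, 0.0040 to 1.02), and Myc had 2 and 48 UMIs (ratio 0.17, 0.020 to 0.63). Of 14 listed genes 8 passed the filter, with 4 higher, 0 lower and a median log2 ratio of 1.03, against 4.36% higher and 3.37% lower of all genes. Among sort-matched cells 9 passed, with 4 higher, 1 lower (Myc) and a median of 0.98, against 12.2% and 5.63% of all genes. The AP-1 genes that passed were 2, Junb and Jund, and neither was past 2-fold.

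Genes tied to deletion or agonist selection were few at this depth. Gadd45b, a stress-response gene, had 105 CPM in NegSelected and 12.4 CPM in PosSelected cells, with 53.3% of its NegSelected UMIs in 1 cell. Bcl2l11, which encodes the death protein Bim, had 70.3 CPM in NegSelected and 22.9 CPM in PosSelected cells (3.06-fold, 1.20 to 7.56), and Pdcd1 (PD-1) had 63.2 and 14.1 CPM (4.48-fold, 1.53 to 13.3); both lay under the mean of 50 CPM in the sums over all cells. In that list 2 of the 4 members that passed were higher, against 4.36% of all genes. Among sort-matched cells 6 of 7 were, against 12.2% of all genes, which added Bcl2l11, Pdcd1, Cd200 and Nfkbid. Xcl1, a chemokine of agonist-signalled thymocytes, had 0 UMIs in NegSelected and 1 in PosSelected cells. Bcl2, the survival protein, had 274 CPM in NegSelected and 93.5 CPM in PosSelected cells (2.93-fold, 1.89 to 4.52), but its log2 ratio of 1.55 was -0.27 in cells with CD24 antibody at or above the median. Bax, a death effector, had 77.3 CPM in NegSelected and 127 CPM in PosSelected cells (0.61, 0.29 to 1.16).

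Regulatory T cell genes were found in a few NegSelected cells. Foxp3, the factor that defines these cells, had 9 UMIs in 4 of 39 NegSelected cells and 1 UMI in 1 of 189 PosSelected cells (35.8-fold, 4.97 to 1571). Il2ra had 12 UMIs in 5 NegSelected cells and 1 UMI in 1 PosSelected cell (47.8-fold, 7.07 to 2043). Il2rb, another chain of that receptor, had 14 UMIs in 7 NegSelected cells and 2 UMIs in 2 PosSelected cells (27.9-fold, 6.40 to 253). Of the 4 NegSelected cells with Foxp3, all had a UMI of Tnfrsf4, 3 of Il2ra and 3 of Ikzf2. In the list of regulatory T cell genes 2 of 12 passed the filter and 1 was higher (Il2rb), against 4.36% of all genes. Among sort-matched cells 5 passed and 4 were higher (Il2ra, Il2rb, Capg and Tnfrsf1b), against 12.2% of all genes. The 4 NegSelected cells with Foxp3 had GITR antibody values of 6.50, 6.05, 6.37 and 6.20 and CD25 values of 6.60, 2.34, 5.38 and 6.33. The highest of the 189 PosSelected cells were at 5.65 for GITR and 3.62 for CD25. All 4 thus lay above every PosSelected cell for GITR and 3 of 4 for CD25, and 3 of the 4 were sort-matched. Ctla4 (28.1 CPM in NegSelected, 14.1 in PosSelected; 1.99-fold, 0.44 to 7.43) was too low to tell apart. The anergy list, with Izumo1r (FR4) at 119 CPM in NegSelected and 176 CPM in PosSelected cells, had none of its 7 passing members past 2-fold and a median log2 ratio of -0.18. Among sort-matched cells 1 of 7 was higher, Cblb (290 CPM in NegSelected, 116 in PosSelected), against 12.2% of all genes. Nfatc1 was the 1 lower (2 UMIs in NegSelected, 50 in PosSelected, ratio 0.24, 0.028 to 0.92), against 5.63% of all genes.

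The NF-kB list, whose subunits and inhibitors act downstream of the receptor and of TNF receptors, had 3 of 10 passing members higher and 0 lower, against 4.36% and 3.37% of all genes, with a median log2 ratio of 0.71. These were Bcl3 (112 CPM in NegSelected, 33.5 in PosSelected), Relb (84.3 and 33.5 CPM) and Nfkbib (91.3 and 37.1 CPM). In sort-matched cells 6 of 10 were higher, against 12.2% of all genes (Nfkb1, Nfkb2, Nfkbib, Nfkbid, Birc3 and Bcl3), while Relb was at 48.3 CPM in NegSelected and 34.0 CPM in PosSelected cells and Rel and Rela differed by less than their intervals. Promoters (250 bases before the start, RefSeq, GRCm38.p6) were searched on both strands for the 10-letter kB motif of NF-kB, which 0.714% of 27025 genes held. This kB motif was found in 4 of the 11 NF-kB genes with a promoter (Nfkb2, Nfkbia, Rel and Tnfaip3), in 1 of 8 TNF receptor list genes (Traf3) and in 0 of 11 of the 12 named higher genes. The AP-1 motif TGANTCA was found in 6.87% of all promoters and 2 of the 11 named genes, the CRE motif TGACGTCA in 1.62% and 0, and the E-box CAGCTG in 12.8% and 1. Nfkb2 and Nfkbia are shown as a subunit and an inhibitor with a match, in capitals; a match is a description of the letters and not a site.
Nfkb2 (chr19:46304487-46304736, plus strand): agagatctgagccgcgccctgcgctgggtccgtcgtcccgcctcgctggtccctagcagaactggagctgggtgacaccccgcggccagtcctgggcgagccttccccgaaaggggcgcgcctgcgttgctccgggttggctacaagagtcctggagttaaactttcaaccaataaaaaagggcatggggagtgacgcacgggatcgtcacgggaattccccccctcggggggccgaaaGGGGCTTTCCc
Nfkbia (chr12:55492648-55492897, minus strand): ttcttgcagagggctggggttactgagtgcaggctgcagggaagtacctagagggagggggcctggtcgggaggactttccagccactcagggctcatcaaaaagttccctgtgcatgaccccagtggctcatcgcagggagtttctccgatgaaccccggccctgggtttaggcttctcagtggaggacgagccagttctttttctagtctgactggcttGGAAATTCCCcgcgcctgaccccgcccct

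Of the other genes named by size, Tspan13 (a tetraspanin) had 604 CPM in NegSelected and 183 CPM in PosSelected cells, 3.29-fold (2.45 to 4.42), and was found in 27 of 39 and 78 of 189 cells. Ecm1 (an extracellular matrix protein) had 218 and 21.2 CPM, Tbc1d4 (a GTPase-activating protein of Rab proteins) 225 and 26.5 CPM, and Igf2r (the mannose-6-phosphate receptor) 169 and 31.8 CPM in NegSelected and PosSelected cells. Lmo4 (a LIM-only cofactor) had 246 CPM in NegSelected and 49.4 CPM in PosSelected cells, but its log2 ratio of 2.32 was 0.15 in a gate stricter by 0.5 and 0.02 in cells with CD24 antibody below the median. Tbc1d4 and Tspan13, at log2 ratios of 3.09 and 1.72, were at 0.91 and 0.47 in those cells. Hdac9 had 246 CPM in NegSelected and 5.29 CPM in PosSelected cells (46.5-fold, 14.6 to 236), with 82.9% of its NegSelected UMIs in 1 cell. Igfbp4 turned direction with the sort: over all cells it had 731 CPM in NegSelected and 219 CPM in PosSelected cells (3.34-fold, 2.55 to 4.37), in sort-matched cells 48.3 and 148 CPM (0.33, 0.087 to 0.87), and outside the sort pattern 1683 CPM in 15 NegSelected and 743 CPM in 19 PosSelected cells. Restricting to sort-matched cells named 5 further higher genes at ratios of 10.5 to 28.6, which were Tnfrsf4, Colq (the collagen tail of acetylcholinesterase), Ergic1 (a protein between endoplasmic reticulum and Golgi), Marcksl1 (an actin-binding protein) and St6galnac3 (a sialyltransferase).

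**Figure D3:**
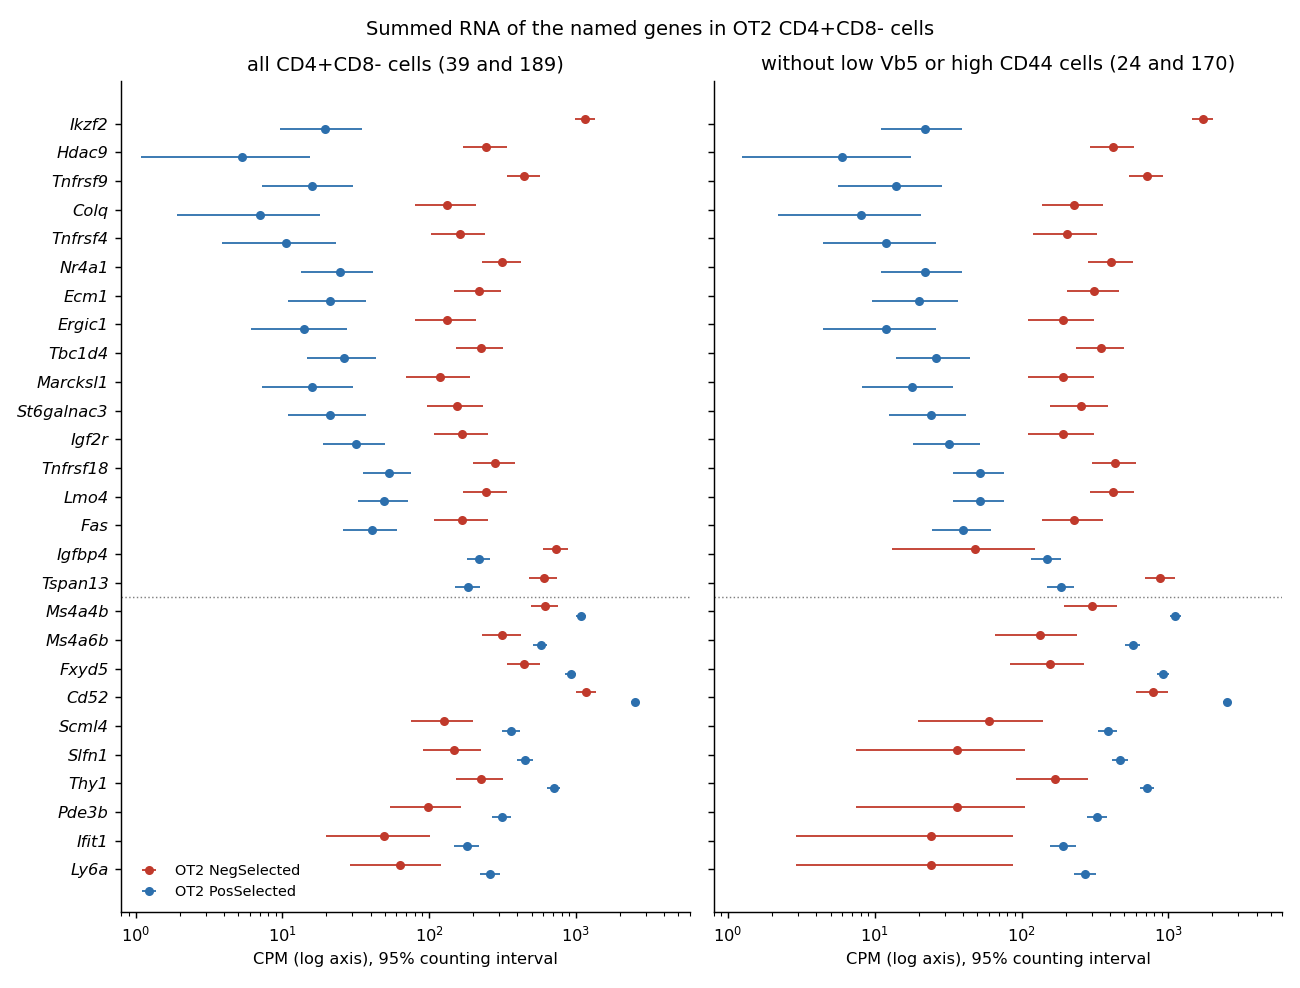
CPM (log axis) with 95% counting intervals of the genes named by size in either set of cells, OT2 NegSelected in red and OT2 PosSelected in blue, for all CD4+CD8- cells (left) and sort-matched cells (right). Genes above the dotted line were named as higher in NegSelected cells and genes below it as lower; Igfbp4 lies on opposite sides in the panels.

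Ly6a and Thy1 were the genes named as lower over all cells. Ly6a, which encodes Sca-1, had 63.2 CPM in NegSelected and 261 CPM in PosSelected cells (ratio 0.24, 0.11 to 0.47), and Thy1, a surface glycoprotein of T cells, 225 and 706 CPM (0.32, 0.22 to 0.46). The THY1.2 antibody, against the protein of Thy1, had a ratio of 0.83 over all cells. In sort-matched cells its ratio was 0.90 (0.89 to 0.91). Over all cells the difference in Thy1 protein was thus smaller than that in its RNA. Cd52, another lipid-anchored surface protein, had 1173 CPM in NegSelected and 2521 CPM in PosSelected cells (0.47, 0.39 to 0.55). Slfn1, a Schlafen gene tied to quiescence, had 148 CPM in NegSelected and 450 CPM in PosSelected cells. Over all cells 2 of the 19 passing genes of the maturation and egress list were lower (Slfn1 and Cd52), against 3.37% of all genes, 0 were higher and the median log2 ratio was -0.38. In sort-matched cells 9 of 19 were lower, 0 were higher and the median was -0.97, against 5.63% lower and a median of 0.16 over all genes.

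Within the sort-matched cells the difference was larger. Slfn1 had 36.2 CPM in NegSelected and 469 CPM in PosSelected sort-matched cells (0.077, 0.016 to 0.23), and was found in 2 of 24 and 102 of 170 cells. Ms4a4b, a tetraspan membrane protein, had 302 CPM in NegSelected and 1115 CPM in PosSelected cells (0.27, 0.17 to 0.40), and Ms4a6b 133 and 571 CPM. Klf2, the factor that drives S1pr1, had 253 CPM in NegSelected and 589 CPM in PosSelected cells (0.43, 0.26 to 0.67). S1pr1, the receptor for exit from the thymus, had 121 and 236 CPM (0.51, 0.24 to 0.97), while Ccr7, which guides cells to the medulla, had 519 and 575 CPM (0.90, 0.64 to 1.25). Fxyd5 (a regulator of the sodium pump) and Scml4 were also at least 2-fold lower, with ratios of 0.17 and 0.16, as were Pde3b, a phosphodiesterase (3 UMIs in NegSelected, ratio 0.11, 0.023 to 0.33), and Ly6a (2 UMIs in NegSelected, ratio 0.089, 0.011 to 0.33). Outside the sort pattern these genes were alike within their intervals, with Slfn1 at 303 CPM in NegSelected and 312 CPM in PosSelected cells (0.97, 0.49 to 1.91), Ms4a4b at 1060 and 921 CPM (1.15, 0.80 to 1.66) and Klf2 at 673 and 728 CPM (0.92, 0.59 to 1.43).

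In the list of recently selected single-positive cells, 7 of 11 genes passed the filter over all cells, with 1 higher (Cd24a), 1 lower (Id3) and a median log2 ratio of 0.16, against 4.36% and 3.37% of all genes. Cd24a, lost as single-positive cells mature, had 98.4 CPM in NegSelected and 12.4 CPM in PosSelected cells (7.97-fold, 3.01 to 23.3), and Sox4 had 239 and 120 CPM (1.99-fold, 1.28 to 3.05). In sort-matched cells 4 of 8 passing members were higher (Cd24a, Ccr9, Sox4 and Lad1), 0 lower and the median log2 ratio was 0.90, against 12.2% higher over all genes. Ccr9, a chemokine receptor, had 483 CPM in NegSelected and 230 CPM in PosSelected sort-matched cells, and Itm2a 1363 and 815 CPM (1.67-fold, 1.35 to 2.07). Id3, an inhibitor of E proteins, had 246 CPM in NegSelected and 492 CPM in PosSelected cells over all cells. Tox, needed for CD4 lineage cells, had 808 and 448 CPM (1.80-fold, 1.43 to 2.26), and in the CD4 lineage list no gene of 8 passed 2-fold over all cells. Among sort-matched cells 1 of 8 was higher, Tox (1182 CPM in NegSelected, 481 in PosSelected), against 12.2% of all genes. Cd40lg was the 1 lower (3 UMIs in NegSelected, 67 in PosSelected, ratio 0.27, 0.054 to 0.82), against 5.63% of all genes.

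Interferon-response genes were lower in part, and they were also lower in part in the CD4+CD8+ cells of the same mice (values below). Ifit1 had 49.2 CPM in NegSelected and 182 CPM in PosSelected cells (0.27, 0.11 to 0.58), Ifit3 2 UMIs and 59 UMIs (0.13, 0.016 to 0.51), and Usp18 35.1 and 79.4 CPM. These 3 of 17 passing members were at least 2-fold lower, against 3.37% of all genes, and the list median was -0.60. Gbp2 was higher (232 CPM in NegSelected and 109 CPM in PosSelected cells, 51.5% of its NegSelected UMIs in 1 cell). In sort-matched cells the list median was -0.59 with 5 of 17 lower and 1 higher, against 5.63% and 12.2% of all genes. The 13 MHC class I genes had a median of -0.29 and none past 2-fold over all cells (H2-Q7 was lower in sort-matched cells, at 84.4 CPM in NegSelected and 250 CPM in PosSelected cells), with H2-K1 at 1722 CPM in NegSelected and 2243 CPM in PosSelected cells. None of the 16 genes of the receptor complex and its kinases passed 2-fold over all cells either, with a median of -0.37, and in sort-matched cells Fyn, a kinase, was lower (145 CPM in NegSelected and 304 CPM in PosSelected cells). Cd247 had 653 CPM in NegSelected and 981 CPM in PosSelected cells (0.67, 0.53 to 0.83), and Lcp2, an adaptor, 408 and 268 CPM (1.52, 1.10 to 2.07). Among the 13 signal-feedback genes, Dusp5, a phosphatase of ERK, had 134 CPM in NegSelected and 26.5 CPM in PosSelected cells (5.04-fold, 2.43 to 10.7), Cd5 was the other past 2-fold, and the median was 0.37. These 2 of 13 higher genes stand against 4.36% of all genes. Among 16 T cell factors only Ikzf2 was higher and only Id3 lower over all cells, against 4.36% and 3.37% of all genes. Ikzf1 (Ikaros) had 415 CPM in NegSelected and 628 CPM in PosSelected cells and Tcf7 1180 and 1475 CPM. In sort-matched cells 3 of 16 (Ikzf2, Ikzf3 and Tox) were higher and 2 (Klf13 and Zeb1) lower, against 12.2% and 5.63% of all genes.

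**Figure D4:**
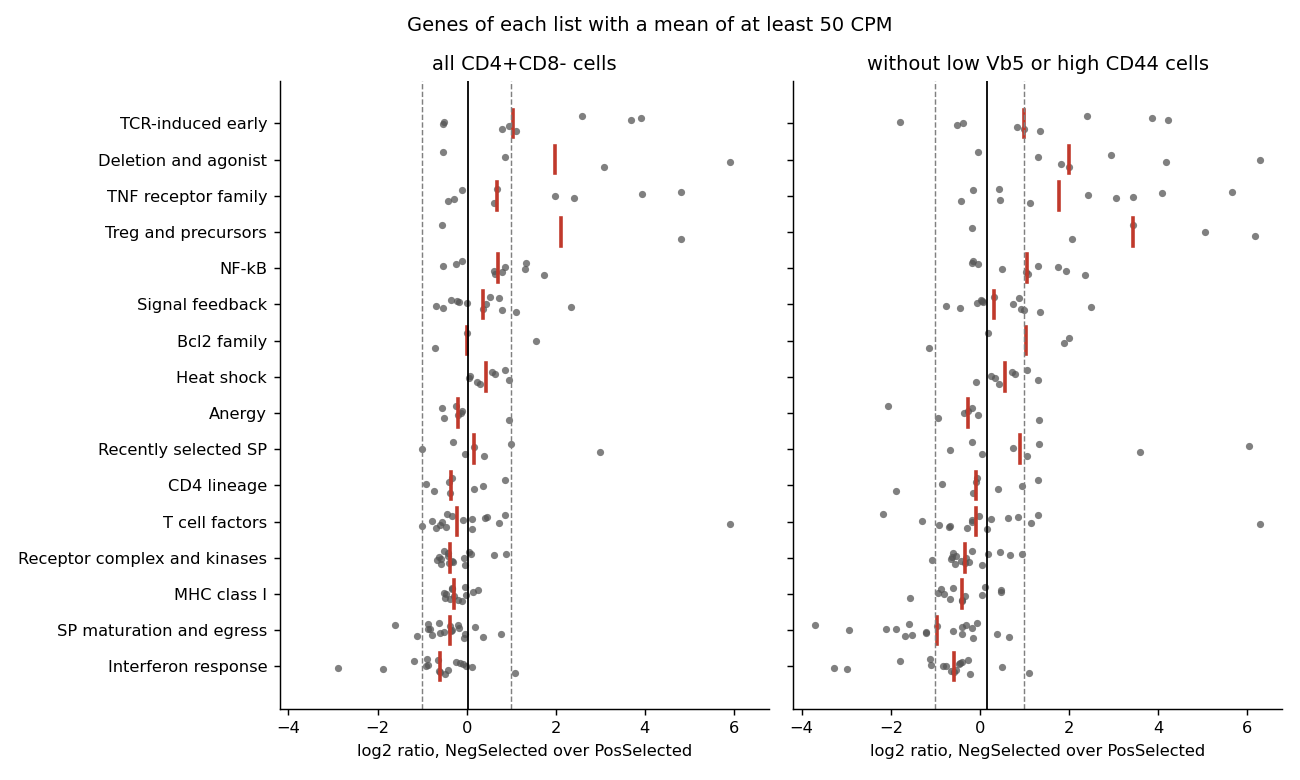
Log2 ratio of NegSelected over PosSelected CPM for each gene of 16 lists that had a mean of at least 50 CPM (points), with the list median (red bar), the median of all genes (black line) and the 2-fold limits (dashed), in all CD4+CD8- cells (left) and sort-matched cells (right). The maturation and egress list has its median at -0.38 on the left and -0.97 on the right, and the TNF receptor family list at 0.67 and 1.78.

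Surface antibodies were counted in the same cells, with 97 antibodies at a mean of at least 500 antibody CPM, CD4 and CD8A left out. Of these, 16 (16.5%) were at least 1.5-fold higher and 9 (9.28%) at least 1.5-fold lower in NegSelected cells. CD25 had 2137 antibody CPM in NegSelected and 310 in PosSelected cells (6.90-fold, 5.88 to 8.11); its per-cell log2 median was 1.61 (0 to 6.60) in NegSelected and 0.88 (0 to 3.62) in PosSelected cells, and 8 of 39 NegSelected cells lay above every PosSelected cell. GITR had 7048 antibody CPM in NegSelected and 1697 in PosSelected cells (4.15-fold, 3.85 to 4.48), and 10 of 39 NegSelected cells lay above the highest PosSelected cell. Its per-cell log2 medians lay closer, at 3.59 in NegSelected and 3.12 in PosSelected cells. CD24 had 8971 antibody CPM in NegSelected and 5271 in PosSelected cells (1.70-fold), with 10 of 39 cells above the highest PosSelected cell. CD120B (TNFR2), KIT, OX40 and CD200 had ratios of 2.07, 3.10, 1.60 and 1.59, with 6, 4, 0 and 1 of 39 NegSelected cells above the highest PosSelected cell. Such cells were counted for chosen antibodies only, so no share over all 97 antibodies is given. CD137 (4-1BB) had a ratio of 1.12 although its RNA was 27.9-fold higher, PD-1 had 1.09, CD69 1.23 and CD5 1.04. In sort-matched cells GITR had a ratio of 5.76, CD25 of 9.84, CD24 of 2.53 and CD69 of 1.61.

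Among the antibodies lower in NegSelected cells, Sca-1, the protein of Ly6a, had 478 antibody CPM in NegSelected and 3147 in PosSelected sort-matched cells (ratio 0.15), where over all cells the ratio was 0.66. CD9 had a ratio of 0.50 over all cells and 0.33 in sort-matched cells, and HVEM 0.56 and 0.46. ICOS had 0.66 over all cells and 0.74 in sort-matched cells. FR4, the protein of Izumo1r, had 0.71 and 0.65. Va2, a chain of the transgenic receptor and a sort antigen, had 13872 antibody CPM in NegSelected and 22085 in PosSelected cells (0.63), and 0.49 among sort-matched cells. Over all cells TCRB was not lower, at a ratio of 1.08 (1.04 to 1.13), and CD3 had 0.77. TCRB had 0.59 and CD3 0.62 in sort-matched cells, which were chosen in part by the Vb5 chain. Trac and Trbc2 RNA was not lower in those cells, at 2907 and 1303 CPM in NegSelected and 1812 and 879 CPM in PosSelected cells. Several summed values came from single cells: CD127 had a ratio of 3.94 with 51.7% of its NegSelected UMIs in 1 cell and medians of 4.28 and 4.19, VISTA and TCRVA8.3 had 52.2% and 53.1% of theirs in 1 cell, and PD1L2 and LAG3 had 48.8% and 36.3% of their PosSelected UMIs in 1 cell. CD44, at a ratio of 2.66, was 1.02 in sort-matched cells, for which it was used to choose them. CD45 had a ratio of 2.61, with a median of 7.37 in NegSelected and 5.65 in PosSelected cells. In the CD4+CD8+ cells of the same mice the medians were 6.85 in NegSelected and 5.92 in PosSelected cells. Over all cells of a mouse the CD45 median was 5.69 in OT2 PosSelected, the lowest of the series, and 6.06 to 6.93 in the other mice. CD45.1, a sort antigen, had a ratio of 1.51, and of 2.02 in sort-matched cells. The reason for these CD45 differences was not tested.

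**Figure D5:**
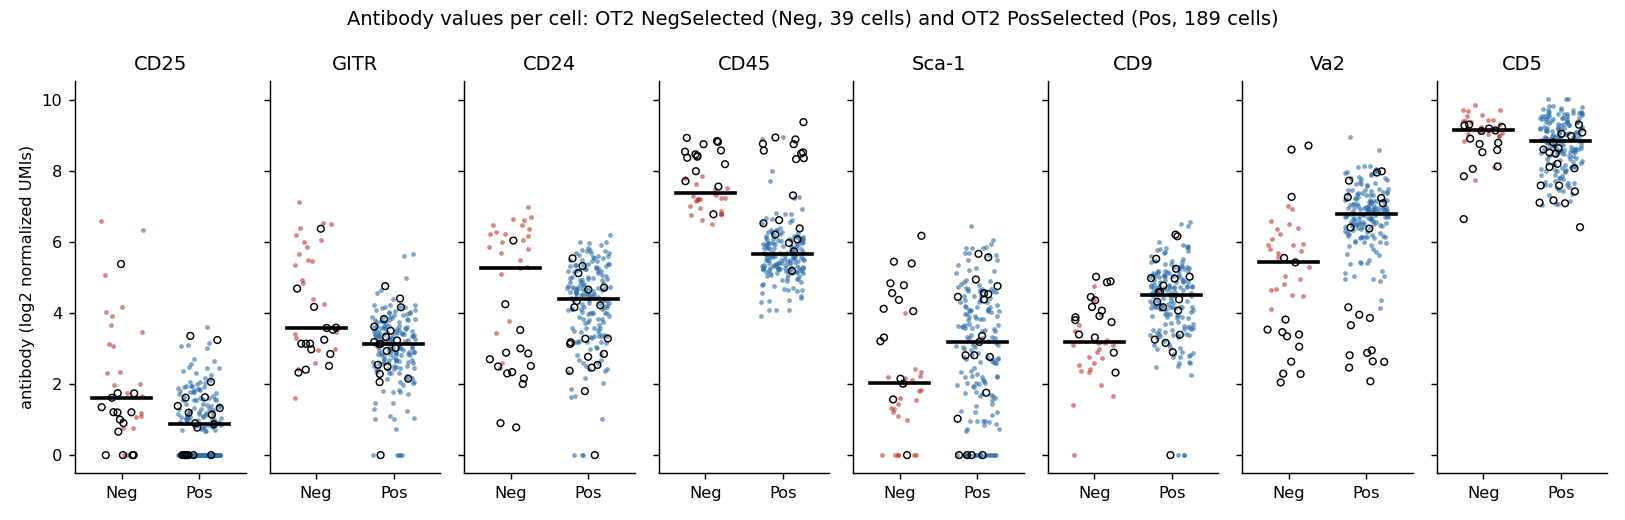
Log2 normalized antibody UMIs of each CD4+CD8- cell for 8 antibodies, OT2 NegSelected (Neg, 39 cells) left of OT2 PosSelected (Pos, 189 cells) in each panel; black bars are medians over all cells of the mouse and open circles are cells of low Vb5 or high CD44. In NegSelected cells most open circles lie below the median for CD24 and Va2 and above it for CD45.

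The CD4+CD8+ cells of the same 2 mice (66 NegSelected and 29 PosSelected) showed several of these genes at other levels. Ikzf2 had 350 CPM in NegSelected and 235 CPM in PosSelected CD4+CD8+ cells (1.49-fold, 0.86 to 2.66), Tnfrsf9 was at 0 in both, and Tnfrsf18 had 4 UMIs in each. Cd5 had 861 and 915 CPM, Thy1 1809 and 1670 CPM (1.08-fold, 0.88 to 1.34) and Cd52 780 and 804 CPM (0.97-fold, 0.71 to 1.34), all within their intervals of a ratio of 1. Nr4a1 had 18 and 3 UMIs (3.26-fold, 0.95 to 17.3). GITR antibody had a ratio of 1.13 (0.90 to 1.43) and CD25 antibody of 0.87 (0.69 to 1.11) there, and CD45 of 1.68. Across all genes 7.56% were at least 2-fold higher and 6.97% lower, on sums of 148704 and 80837 UMIs. The difference between the CD4+CD8- and the CD4+CD8+ ratios was not tested, as each rests on the same 2 mice.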

How the data were processed

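The authors deposited counts without normalization: UMI counts of genes and of antibodies in each cell, with a table of hashtags that ties a cell to 1 mouse. Cell Ranger 8.0.1, Seurat and the mm10 build are named per the submitters' processing notes; how hashtags were assigned and doublets treated is not given in the sources used here. Libraries of receptor sequences were not used here, and 1 gene is not reported here. For each mouse the counts of its cells in the gate were added up and scaled by their total (CPM), with exact Poisson intervals; ratios have exact conditional binomial 95% intervals, and a sum at 0 was set to 3 counts. Genes needed a mean of both CPM of at least 50. No test was made, since there was 1 mouse per group. Named genes had a mean of at least 100 CPM and a ratio interval wholly past 2-fold (up to 12 each way, receptor segments, ribosomal, mitochondrial and unnamed genes left out), beside anchor genes and list members. The members, the 32 gene lists and the anchors were chosen with earlier results of these data known. Python 3.11.15, scipy 1.17.1, R 4.3.3 and edgeR 4.0.16 (scaling factors only) were used.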

Additional observations from a re-analysis of the deposited data

How the results depend on the processing

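No paired analysis was possible because each host had 1 mouse, so that no replicate could be left out either. The 150 genes at least 2-fold higher and 116 lower became 235 and 200 with totals without ribosomal and mitochondrial genes, 396 and 292 in cells with CD24 antibody at or above the median and 275 and 234 below it, 1551 and 916 with no filter on low counts, 8 and 11 at a mean of at least 200 CPM, 442 and 204 in sort-matched cells and 510 and 227 with Vb5 over 3.5 and CD44 at most 4.5; the lower count was 178 in the stricter gate. These settings change the genes tested or the UMIs summed. With TMM factors the counts were 110 and 156. The PosSelected share in the gate was 68.1% in the stricter gate. By difference of medians over cells 5 antibodies were higher, not 16. Reversed were the log2 ratios of Igfbp4 (1.74; -2.96 at high CD24, -1.62 and -3.54 in the 2 sort restrictions), Bcl2 (1.55; -0.27 at high CD24), Trbv13-1 (2.54; -0.47, -0.11 and -0.11) and CD38 antibody (1.05; -0.052 by medians); the cause was not tested. Ikzf2 kept a log2 ratio of 4.68 to 6.64 and Nr4a1 2.29 to 4.65 in all settings run, while Thy1 (-2.75 to -0.97), Cd52 (-1.85 to -0.62) and Slfn1 (-5.19 to -0.81) were short of 2-fold in some settings. At this depth a gene at 0 in the NegSelected sum can be at up to 21.1 CPM.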

Other observations

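Of the 8 heat shock genes that passed the filter, all had a log2 ratio above 0 and none was past 2-fold over all cells, with a median of 0.43. In sort-matched cells 2 of 8 (Hsp90aa1 and Hsph1) were higher, against 12.2% of all genes. Over all cells Hsp90aa1, a chaperone, had 478 CPM in NegSelected and 247 CPM in PosSelected cells, with 27.9% of its NegSelected UMIs in 1 cell. Among cytokine receptors and their inhibitors, 3 of 10 passing genes were higher (Il2rb, Il6st and Tgfbr1) and 1 lower (Il6ra) over all cells, against 4.36% and 3.37% of all genes, and 4 of 11 higher and 1 lower in sort-matched cells. Il6st, the shared signal chain of the IL-6 family, had 197 CPM in NegSelected and 84.7 CPM in PosSelected cells (2.32-fold, 1.40 to 3.78), whereas Il6ra, its IL-6 binding partner, had 42.2 and 101 CPM (0.42, 0.15 to 0.97) and was at 0 in sort-matched NegSelected cells against 102 CPM in PosSelected cells. Il7r, the receptor chain for the survival cytokine IL-7, had 464 CPM in NegSelected and 270 CPM in PosSelected cells over all cells but 169 and 222 CPM in sort-matched cells, and 875 CPM in the 15 NegSelected cells outside the sort pattern. Inpp4b, a lipid phosphatase, had 632 CPM in NegSelected and 1011 CPM in PosSelected cells (0.63, 0.49 to 0.78). Penk had 28 UMIs in NegSelected cells, all in 1 cell outside the sort pattern, and 0 in PosSelected cells.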
